A study of Mus musculus with 6 samples.

Results

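Axon guidance genes encode the cues that steer growing axons and the receptors that read them. The group described here was defined by gene symbol, as the semaphorins of classes 3 to 7, plexins, Nrp1 and Nrp2, Eph receptors, ephrins, netrins, Unc5 receptors, Slits and Robos. Of 8252 named genes, 44 matched this rule, through 57 of 12488 probe sets, and each gene was represented by its brightest probe set. The letters of the rule also match Unc50, which is not an Unc5 netrin receptor and carries the name of a worm gene needed to assemble acetylcholine receptors. It is kept in the counts as a match by letters only, so that 43 genes belong to the guidance families. No Slit gene and no Nrp2 is among the genes analysed here.

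The arrays compare visual cortex of wild-type (C57Bl6) mice whose hemispheres differ in visual input. One eye was removed at postnatal day 100 in 4 mice, which were killed 4 days later. The deprived group is the hemisphere contralateral to the lost eye (3 arrays) and the non-deprived group the ipsilateral one (3 arrays). Every animal had lost an eye, so the non-deprived hemisphere is not cortex of an intact mouse, and the sources speak of pooled samples without saying how many mice a pool held or whether the 3 pools were separate. Spread between arrays may therefore be technical, and p-values measure only that spread.

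The values are MAS5 signals, an arbitrary brightness per probe set that says nothing about the number of transcripts and cannot be compared between genes. Probe sets with a mean signal of at least 134.7 over the 6 arrays, the top 60%, were tested with limma on log2(signal + 16), and adjusted p-values run over all 7453 of them. Log2 changes are given as deprived over non-deprived cortex, and the 95% interval comes from the same fit. Median signal lay between 202.8 and 219.7 on the 6 arrays. Non-deprived replicate 3 stood apart in 1 control, 18S ribosomal RNA, at 2689 against 661 to 981 elsewhere. Among markers of cortical neurons Nrgn, Tbr1 and Camk2a had mean signals of 8504, 3410 and 2637, while Rasgrf2 was dim at 87.8. Fos, an activity-induced transcription factor, fell from 2946 ± 236 to 703 ± 87.7 (SD, n = 3 arrays per group; log2 change -2.05, limma adjusted p = 0.00014).

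Guidance ligands and receptors work in matched sets. Ephrins sit on the cell surface and bind Eph receptor tyrosine kinases on the neighbouring cell, ephrin-A ligands being held by a lipid anchor and ephrin-B ligands spanning the membrane. Semaphorins bind plexins, with neuropilins as co-receptors for the secreted class 3, while netrins bind Dcc and Unc5 receptors and Slits bind Robos. In the visual system ephrin-A gradients help lay out retinotopic maps during development, and in adult cortex many of these proteins remain at synapses, on glia and on blood vessels.

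Of the 31 genes bright enough to test, 0 passed an adjusted p of 0.05 by limma, and the lowest adjusted value was 0.95. They were 30 genes of the guidance families and Unc50. Over all probe sets tested 0.174% passed. At an unadjusted p under 0.05 there were 2 of 31 genes, 6.45%, namely the ligand genes Efnb2 and Sema6c, where 5.09% of all probe sets reached that level. The median log2 change of the 31 genes was 0.05, beside 0.01 over all probe sets. Of the 31, 18 had a higher mean log2 signal in deprived cortex and 13 a lower one, and 52.2% of all probe sets were higher. Without Unc50 the count was 18 of 30 higher. It was 24 of 30 when non-deprived replicate 3 was left out, where 3853 of all 7453 probe sets were higher. Without deprived replicate 2 it was 15 of 30, where 3952 of the 7453 were higher.

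**Figure D1:**
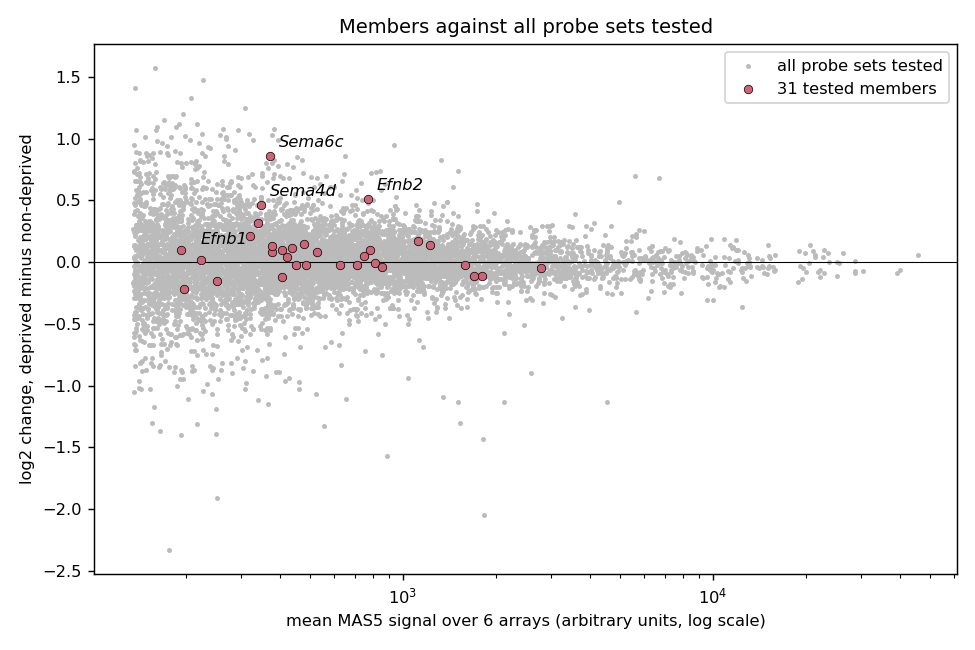
Log2 change against mean signal (log axis) for all 7453 probe sets tested (grey) and the 31 tested genes, Unc50 included (red). The 31 genes lie between -0.22 and 0.86, inside the cloud of the other probe sets at their signal.

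The 6 arrays limited what could be seen. The 95% interval stayed within a 2-fold change either way for 27 of the 31 genes (87.1%, against 86.0% of all probe sets), and within 1.5-fold for 19 (61.3%, against 53.9%). The 4 genes whose interval reached past 2-fold were Efna2, Sema3e, Sema4d and Sema6c. For these 4 the arrays could not show whether a change of that size was present. The median within-group SD of log2 signal was 0.22 for the 31 genes and 0.21 for all probe sets.

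**Figure D2:**
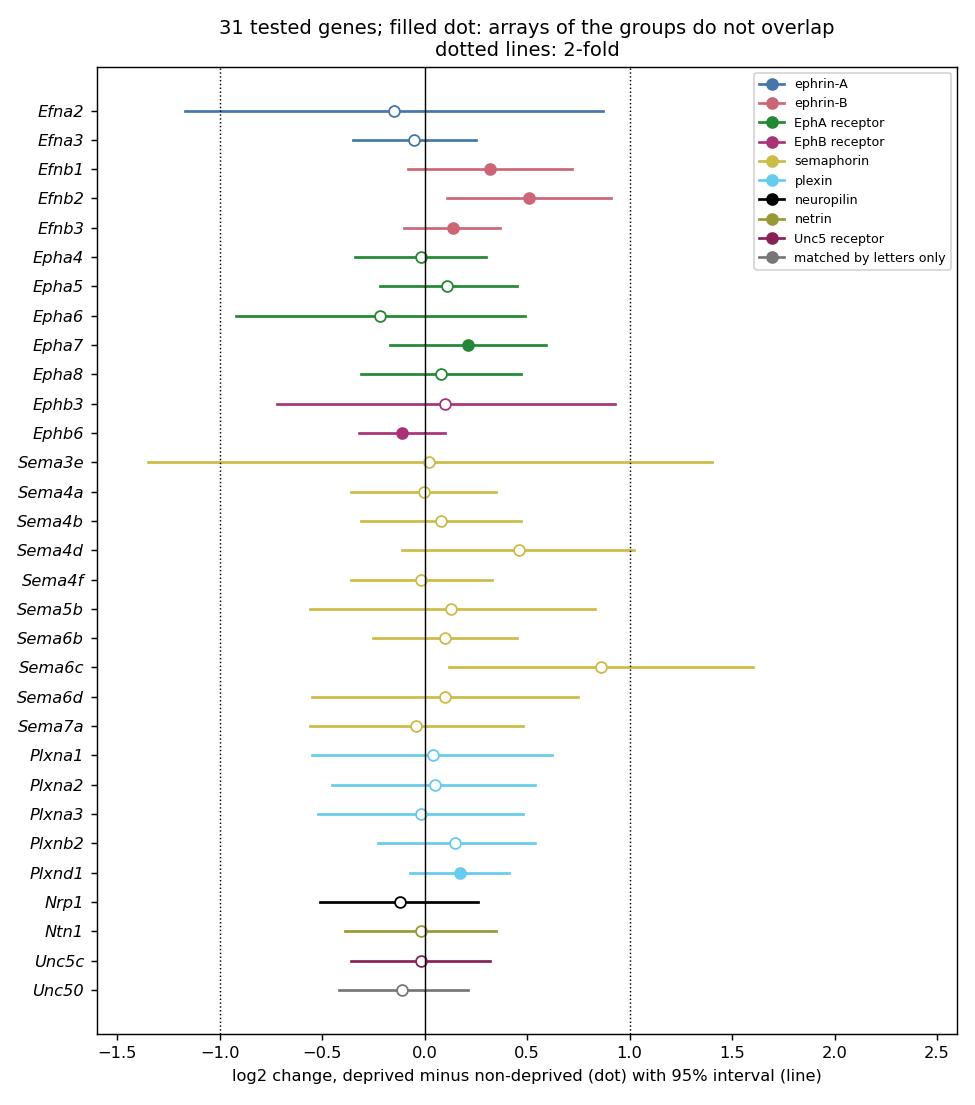
Log2 change (dot) and 95% interval (line) of each of the 31 tested genes, coloured by family, with 2-fold marked by dotted lines. Filled dots mark the 6 genes whose 3 deprived arrays all lay on one side of the 3 non-deprived arrays, among them all 3 ephrin-B genes.

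For 6 of the 31 genes (19.4%) the arrays of the groups did not overlap, with 5 higher in deprived cortex and 1 lower. Of all probe sets tested 10.1% did not overlap, 5.50% with deprived arrays higher and 4.59% with deprived arrays lower. The 5 were Efnb1, Efnb2, Efnb3, Epha7 and Plxnd1, and the 1 was Ephb6. The same 5 stayed apart after quantile normalization of the same arrays and Ephb6 did not. In that setting 379 of all 7453 probe sets were apart with deprived arrays higher, and 394 with deprived arrays lower. These genes were picked out by their values, and a lack of overlap with 3 arrays a side is not a passed test.

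The ephrin-B ligands were the only family in which every member was in this position. Ephrin-B proteins signal in both directions, into the cell that carries the Eph receptor and back into their own. Efnb1 read 325, 304 and 274 in non-deprived replicates 1 to 3 and 451, 351 and 343 in deprived replicates 1 to 3. All deprived arrays were above all non-deprived ones, and deprived replicate 1 was well above the rest. The means were 301 ± 25.3 and 381.5 ± 60.1 (SD, n = 3), a ratio of 1.27, with a log2 change of 0.32 (95% interval -0.08 to 0.72, limma adjusted p = 0.97). Without deprived replicate 1 the log2 change was 0.20.

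Efnb2, the ephrin-B ligand that also marks arterial endothelium, read 696, 544 and 642 in non-deprived and 877, 719 and 1133 in deprived arrays. All 3 deprived arrays were the higher ones, with replicate 3 the highest by far and replicate 2 close to the non-deprived range. The means were 627 ± 77.4 and 910 ± 209 (SD, n = 3), a ratio of 1.45 (log2 change 0.51, 95% interval 0.11 to 0.91, limma adjusted p = 0.95). Without deprived replicate 3 the log2 change was 0.34.

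Efnb3 read 1209, 1193 and 1091 in non-deprived and 1288, 1309 and 1242 in deprived arrays. The groups were apart by a narrow gap, with a ratio of 1.10 (log2 change 0.14, 95% interval -0.10 to 0.37, adjusted p = 0.97 by limma). A second Efnb3 probe set, also bright, read 706, 1107 and 913 in non-deprived and 690, 1024 and 882 in deprived arrays. There the groups overlapped over most of their range and the log2 change was -0.06 (SE 0.19). The higher reading of the brightest Efnb3 probe set was thus not seen on the gene's other one.

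**Figure D3:**
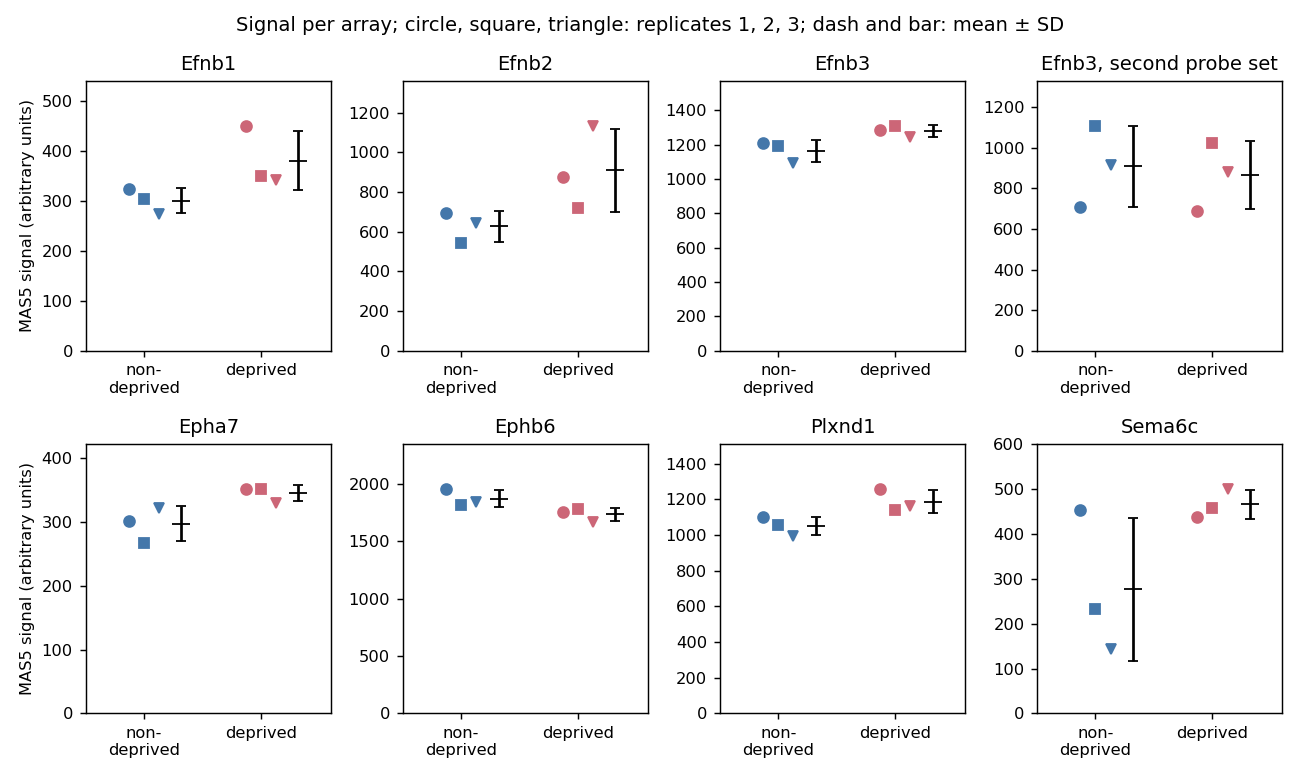
MAS5 signal per array on linear axes from 0, for the 6 genes whose groups did not overlap, the second Efnb3 probe set and Sema6c, with replicates as symbols and mean ± SD as bars (n = 3 arrays per group). Efnb2 runs from 544 to 696 in non-deprived and from 719 to 1133 in deprived arrays, while the groups of the second Efnb3 probe set overlap.

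The region before the transcription start is shown for the 2 ephrin-B genes with the larger differences that the RefSeq promoter table holds. Each window is the 250 bases before the annotated start (RefSeq, build GRCm38.p6), written 5′ to 3′ on the gene's strand. That of Efnb1 is chrX:99135811-99136060 on the plus strand, and that of Efnb2 is chr8:8661243-8661492 on the minus strand. Capitals mark the cyclic AMP response element half-site TGACG and the CCAAT box, on either strand.
Efnb1: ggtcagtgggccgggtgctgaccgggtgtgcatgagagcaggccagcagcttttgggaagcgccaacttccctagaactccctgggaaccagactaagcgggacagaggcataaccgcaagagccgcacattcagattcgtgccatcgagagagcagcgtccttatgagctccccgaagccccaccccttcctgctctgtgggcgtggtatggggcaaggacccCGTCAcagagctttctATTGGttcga
Efnb2: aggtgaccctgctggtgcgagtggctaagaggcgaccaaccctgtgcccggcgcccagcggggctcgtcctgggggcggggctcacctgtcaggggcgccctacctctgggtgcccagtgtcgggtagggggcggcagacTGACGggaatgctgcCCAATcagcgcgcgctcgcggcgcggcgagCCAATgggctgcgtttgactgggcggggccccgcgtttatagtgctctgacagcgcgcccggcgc
Both windows hold 1 match to TGACG, which 17.9% of 32536 RefSeq promoter windows of this length hold. Efnb1 has 1 CCAAT match and Efnb2 has 2, and 33.8% of windows have at least 1. The GC box GGGCGG matched 3 times in Efnb2 and 0 times in Efnb1 (33.0% of windows). Neither window held the AP-1 motif TGANTCA (6.73%), the E-box CACGTG (6.04%) or the Egr motif GCGTGGGCG (0.541%), searched on both strands. Each motif was counted on its own, whether or not it overlapped another. The windows were 60% and 72% G or C, against a median of 52.4%. The matches are a description of these letters only.

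Of 5 ephrin-A ligands only Efna2 and Efna3 were bright enough to test. Efna3 read 2647, 3132 and 2702 in non-deprived and 2621, 3303 and 2325 in deprived arrays, with the deprived arrays holding both the highest and the lowest value (log2 change -0.05, 95% interval -0.35 to 0.25). Efna2 was far more scattered, from 154 to 340 in non-deprived and from 103.5 to 435 in deprived arrays (log2 change -0.15, SE 0.46).

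EphA receptors bind mainly ephrin-A ligands, and 5 of the 7 genes matched were tested. Epha7 read 301, 267 and 322 in non-deprived and 352, 352 and 330 in deprived arrays. Its groups lay apart, but only by the distance from 322 to 330 (log2 change 0.21, 95% interval -0.17 to 0.59, limma adjusted p = 0.97). Epha4, the receptor that binds both ephrin classes, read 674, 669 and 554 in non-deprived and 555, 648 and 664 in deprived arrays. The ranges of the groups were nearly the same, with a log2 change of -0.02 (95% interval -0.34 to 0.30). Epha5 and Epha8 had log2 changes of 0.11 (SE 0.15) and 0.08 (SE 0.17), and Epha6 -0.22 (SE 0.32).

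Of the EphB receptors, which bind the ephrin-B ligands, Ephb3 and Ephb6 were measured. Ephb6, whose kinase domain is inactive, read 1958, 1814 and 1842 in non-deprived and 1751, 1783 and 1671 in deprived arrays. This was the opposite order to the ephrin-B ligands, with all deprived arrays lower, and the difference was small (ratio of non-deprived to deprived 1.08, log2 change -0.11, 95% interval -0.32 to 0.10, limma adjusted p = 0.97). On the second Ephb6 probe set the means were 657 ± 38.0 and 661 ± 101 (SD, n = 3), so it did not show the lower reading. Ephb3 ranged from 143 to 209 in non-deprived and from 102 to 297 in deprived arrays (log2 change 0.10, SE 0.37).

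Semaphorins were the largest family, with 16 genes matched and 10 tested. Of the 10, 7 were higher and 3 lower in deprived cortex, with a median log2 change of 0.09, and in each of the 10 the groups overlapped. Sema6c, a transmembrane class 6 semaphorin, had the largest difference of all 31 genes. It read 452, 233 and 144 in non-deprived and 438, 458 and 500 in deprived arrays. The deprived arrays agreed closely, while 1 non-deprived array read as high as they did and the other 2 were lower, non-deprived replicate 3 the most. The log2 change was 0.86 (95% interval 0.12 to 1.6, limma adjusted p = 0.95), and it was 0.49 without non-deprived replicate 3 and 1.27 without non-deprived replicate 1.

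Sema4d, a ligand of plexin-B1, read 320, 332 and 214 in non-deprived and 285, 512 and 422 in deprived arrays, so deprived replicate 1 lay among the non-deprived values (log2 change 0.46, SE 0.25). Sema4f read 1662, 1270 and 1863 in non-deprived and 1776, 1374 and 1551 in deprived arrays, a log2 change of -0.02 (95% interval -0.36 to 0.33). Both groups of Sema4f covered much the same span. Sema7a, the semaphorin held by a lipid anchor, read 885, 588 and 1173 in non-deprived and 671, 885 and 947 in deprived arrays on its brightest probe set (log2 change -0.04, SE 0.23) and had a log2 change of 0.10 (SE 0.25) on another. Sema4b read 454, 542 and 537 in non-deprived and 548, 652 and 436 in deprived arrays (log2 change 0.08, SE 0.17), with -0.09 (SE 0.27) on a second probe set and -0.005 (SE 0.35) on another.

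Sema3e, the secreted semaphorin that binds Plxnd1 directly, had the widest scatter of the 31 genes. It read 70.7, 326 and 264 in non-deprived and 256, 70.9 and 353 in deprived arrays. In each group 1 array lay near 71 and the other 2 above 250, and the log2 change of 0.02 had a 95% interval from -1.35 to 1.40. The remaining semaphorins tested, Sema4a, Sema5b, Sema6b and Sema6d, had log2 changes from -0.005 to 0.13 with SE from 0.16 to 0.31.

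All 5 plexins matched, the receptors for semaphorins, were bright enough to test, and 4 of the 5 were higher in deprived cortex. Plxnd1, the receptor of Sema3e, read 1098, 1056 and 995 in non-deprived and 1259, 1140 and 1160 in deprived arrays. Its groups did not overlap and the deprived arrays averaged 1.13 times the non-deprived ones (log2 change 0.17, 95% interval -0.07 to 0.41, limma adjusted p = 0.97). Plxnb2 read 369, 555 and 450 in non-deprived and 486, 530 and 495 in deprived arrays (log2 change 0.15, SE 0.17). Its other probe set scattered from 106 to 596 and had a log2 change of -0.44 (SE 0.57). Plxna1, Plxna2 and Plxna3 had log2 changes of 0.04 (SE 0.26), 0.05 (SE 0.22) and -0.02 (SE 0.22).

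Nrp1, the co-receptor that class 3 semaphorins share with vascular growth factors, read 484, 443 and 349 in non-deprived and 374, 420 and 366 in deprived arrays, a log2 change of -0.12 (95% interval -0.51 to 0.26). The deprived values lay inside the non-deprived range. Ntn1, a secreted netrin, read 392, 455 and 516 in non-deprived and 448, 499 and 394 in deprived arrays, a log2 change of -0.02 (95% interval -0.39 to 0.35). Unc5c, a netrin receptor that mediates repulsion, read 464, 489 and 518 in non-deprived and 479, 552 and 424 in deprived arrays, a log2 change of -0.02 (95% interval -0.36 to 0.32). For Ntn1 and Unc5c the deprived and non-deprived arrays were interleaved, and their intervals excluded a 1.5-fold change. Unc50, the match by letters only, read 1664, 1583 and 1996 in non-deprived and 1517, 1433 and 1935 in deprived arrays (log2 change -0.11, SE 0.14).

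**Figure D4:**
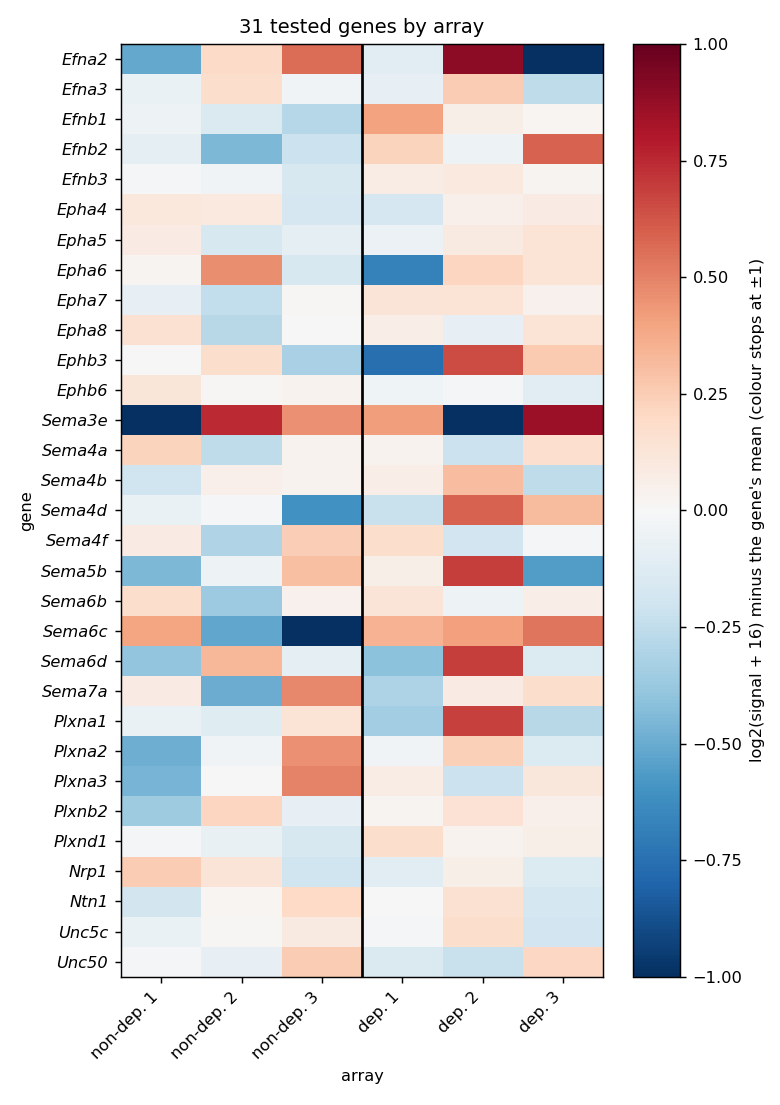
Each cell is log2(signal + 16) of 1 array minus the gene's mean over the 6 arrays, for the 31 tested genes (rows) and the arrays (columns, non-deprived left of the line). The ephrin-B genes and Plxnd1 are higher on all deprived arrays, and deprived replicate 2 holds the highest value of 11 of the 31 genes.

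The highest of the 6 arrays exceeded the lowest by more than 2-fold for 10 of the 31 genes (32.3%), against 21.2% of all probe sets tested. Deprived replicate 2 gave the highest value of the 6 for 11 genes and the lowest for 1, and non-deprived replicate 2 gave the lowest for 8 and the highest for 2. The median deviation of the 31 genes from their own means, on the log2 scale, was 0.10 on deprived replicate 2 and -0.053 on non-deprived replicate 1, the extremes of the 6 arrays.

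The 13 genes with a mean signal under 134.7 ranged in mean signal from 21.9 to 119 and were left out of the test. They were Efna1, Efna4, Efna5, Epha2, Epha3, Sema3a, Sema3b, Sema3c, Sema3f, Sema5a, Sema6a, Robo1 and Robo3. The Slit receptors Robo1 and Robo3, and 4 of the 5 class 3 semaphorins matched, were thus not tested. The genes nearest that limit were Ephb3 (192.7) and Epha6 (197.1) above it and Epha3 (118.8) and Robo3 (112.5) below it. In a limma fit with no filter, 6 of the 13 were higher and 7 lower, with 0 at an unadjusted p under 0.05. The share of 5.09% is from the filtered fit of brighter probe sets, which leaves out these 13. Efna5, the ligand best known from retinotopic mapping, read 88.4 on non-deprived replicate 2 and 7.70 to 12.9 on the other 5 arrays, with a log2 change of -0.81. It was the 1 gene of the 13 whose groups did not overlap, and 1 array held by far the highest value. Among the brighter probe sets tested, which leave out these 13, 10.1% did not overlap. Robo1 likewise read 183 on non-deprived replicate 3 and 13.1 to 61.2 elsewhere.

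**Figure D5:**
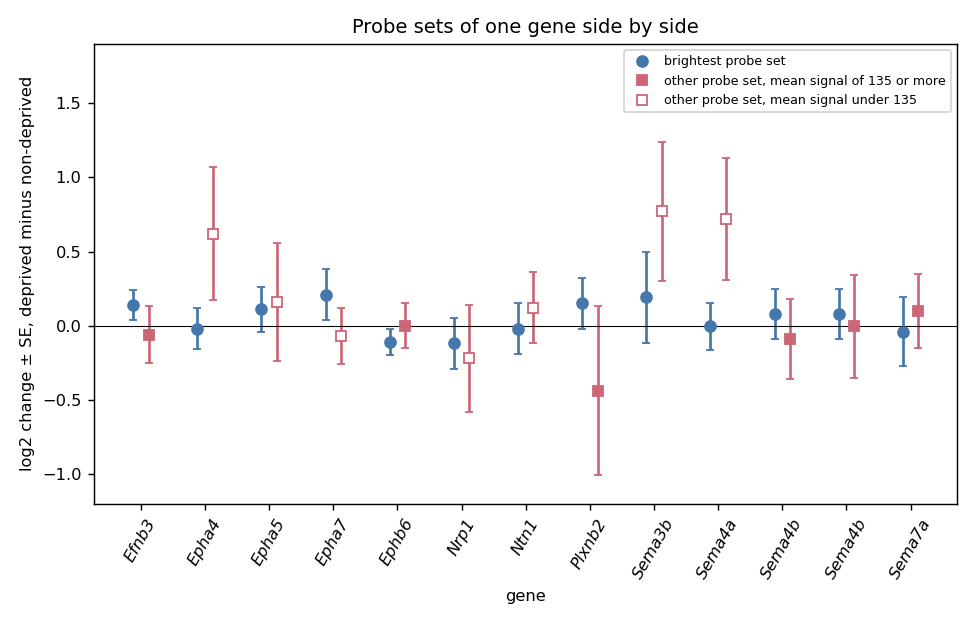
Log2 change ± SE of the brightest probe set (circles) and of each other probe set (squares, open where too dim to test) of the 12 genes with more than 1. The sign differs for 9 of the 13 other probe sets, among them 5 of the 6 bright enough to test.

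Over 12 genes there were 13 other probe sets, of which 9 had the opposite sign to the brightest one, including 5 of the 6 bright enough to test (Efnb3, Plxnb2, Sema7a and both of Sema4b). A dim second probe set of Epha7 had a mean signal of 7.5 and a log2 change of -0.07 (SE 0.19, with no filter). Efnb1, Efnb2, Plxnd1 and Sema6c had a single probe set each.

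Proteins that carry guidance signals inside the cell, or act beside the receptors, were read from a list of 71 genes, of which 44 had a probe set and 35 were tested. By limma 0 of the 35 passed an adjusted p of 0.05, the lowest adjusted value being 0.97, where 0.174% of all probe sets passed. At an unadjusted p under 0.05 there were also 0, against 5.09% of all probe sets. Of the 35, 24 were higher (68.6%, against 52.2% of all probe sets) and 11 lower, with a median log2 change of 0.09 beside 0.01 for all probe sets. The 3 with the smallest p were Ngef, Pak3 and Rac1. Ngef, or ephexin, which acts below EphA receptors, read 9075, 6886 and 6710 in non-deprived and 6123, 6162 and 6719 in deprived arrays (log2 change -0.24, SE 0.11). Non-deprived replicate 1 was the high array, and without it the log2 change was -0.10. Pak3, a kinase switched on by Rac and Cdc42, read 369, 267 and 369 in non-deprived and 185, 288 and 240 in deprived arrays (log2 change -0.47, SE 0.23). Rac1, the small GTPase itself, read 11410, 8870 and 10150 in non-deprived and 11060, 11270 and 12330 in deprived arrays (log2 change 0.19, SE 0.10). In all 3 the groups overlapped. Of the 35, 1 gene (2.86%), Kalrn, had groups that did not overlap, a smaller share than the 10.1% of all probe sets, and its log2 change was 0.09 (SE 0.07). Across groups of the list, co-receptors and other cues had a median of 0.12 over 7 genes, 3 Crmp genes (Crmp1, Dpysl2 and Dpysl4) -0.15, kinases 0.02 over 9, GTPases and their regulators 0.10 over 8, and adaptors and actin regulators 0.09 over 8.

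In whole cortex, a change in the number of cells of a type and a change in RNA per cell cannot be told apart. Efnb2 and Plxnd1 are also made by blood vessels, and the summed signal of 6 endothelial markers was 1138 to 1215 in non-deprived and 1066 to 1349 in deprived arrays, overlapping. Of these markers 4 were tested, with 2 higher and 2 lower. Their log2 changes were 0.40 for Cldn5 (SE 0.19), 0.05 for Kdr (SE 0.58), -0.16 for Flt1 (SE 0.22) and -0.36 for Pecam1 (SE 0.51), and Tek and Cdh5 were too dim to test. Cldn5 read 326, 274 and 284 in non-deprived and 466, 330 and 394 in deprived arrays. It was the 1 of the 4 whose groups did not overlap, where 10.1% of all probe sets did not. The part of blood vessels in the Efnb2 and Plxnd1 readings was not tested. The summed signals of 2 other marker lists did not overlap. Inhibitory neuron markers (6 of 6 measured) summed to 14960 to 15720 in non-deprived and 12210 to 13840 in deprived arrays. Of these 6 markers 5 were lower and 1, Vip, was higher (log2 change 0.19, SE 0.21). By limma 0 of the 6 passed an adjusted p of 0.05. At an unadjusted p under 0.05 there were 2 (33.3%), against 5.09% of all probe sets. With no filter, Sst had a log2 change of -0.39 (SE 0.08) and Pvalb -0.25 (SE 0.11). Gad1 had -0.13 (SE 0.08), Gad2 -0.14 (SE 0.30) and Slc32a1 -0.09 (SE 0.17). The sum differed mostly through Sst and Pvalb. Mean signals in non-deprived and deprived arrays were 4521 and 3446 for Sst and 4917 and 4149 for Pvalb. Hippocampal markers (4 of 4 measured, Prox1 and Lct dim) summed to 1224 to 1513 in non-deprived and 1531 to 2001 in deprived arrays. Most of that sum was the signal of Wfs1, which read 1224, 826 and 1132 in non-deprived and 1318, 1697 and 1208 in deprived arrays, so its own groups overlapped. In the fit with no filter the log2 change was 0.41 for Wfs1 (SE 0.17), 0.62 for Zbtb20 (SE 0.49), 0.03 for Lct (SE 0.33) and -0.45 for Prox1 (SE 0.39). Sums add signals of unlike scale and describe each array only. Sums of the astrocyte, oligodendrocyte, microglia, meningeal, thalamic and glutamatergic lists overlapped between the groups. Whether any of these moved the guidance readings was not tested.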

How the data were processed

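Total RNA of 6 samples of mouse visual cortex was hybridised to arrays, and the authors deposited 1 table of 12488 probe sets with MAS5 signal intensity on a linear scale, per the submitters' processing notes. MAS5's version and detection calls are not given in the sources used here. All 6 columns had a 2% trimmed mean of 500.3, so bringing them to a common one left them unchanged. The 66 control probe sets were set aside. Gene names came from the platform annotation (10855 probe sets with 1 symbol, 396 with several, 1237 unnamed), and all 44 member symbols matched by Entrez ID to RefSeq's mouse table.

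The brightest probe set per gene was read. Groups were compared with limma 3.58.1 (R 4.3.3; lmFit, eBayes with an intensity trend, two-sided, group as the only term) on log2(signal + 16) for the top 60% of probe sets by mean signal, with Benjamini-Hochberg adjustment across all probe sets tested and a threshold of 0.05. The fit was tested on simulated data. Unfiltered values of dim genes come from the same fit without the filter.

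Values in every array are given for tested members with an unadjusted p under 0.05, with groups that do not overlap, with tested probe sets of opposite sign, or brightest in their family, and for the 3 effectors with the smallest p; values of Sema4d, Sema3e, Efna2, Ephb3, Efna5, Robo1, Kalrn and the named cell type markers were added after their values were seen. The members and lists were chosen with earlier results of these data known. Replicate numbers were not used to pair the arrays in the main fit. Correlations of same-numbered deviations were 0.00297, 0.0490 and -0.0201. Whether same-numbered pools held the same mice is not stated, and these correlations cannot settle it.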

Additional observations from a re-analysis of the deposited data

How the results depend on the processing

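No guidance gene and no effector passed an adjusted p of 0.05 in limma under any of the 15 alternatives run (no filter, the top 40%, quantile normalization, unscaled values, pseudocounts of 1 and 64, a replicate block, no intensity trend, averaging the probe sets of a gene, and each array left out in turn), nor at a threshold of 0.10. The unscaled values were in effect the main fit again, since scaling left the signals unchanged. With the replicate block, 10 probe sets passed in all against 13 without it. In both fits 2 guidance genes had an unadjusted p under 0.05 by limma. The share of all probe sets at that level is not given here for the block fit. Leaving out 1 array gave 7 to 10 passing probe sets, 7 without non-deprived replicate 2 and 8 without either replicate 3. It gave 0 to 3 guidance genes at an unadjusted p under 0.05, with 0 without non-deprived replicate 2 or deprived replicate 3. Of all 7453 probe sets, 310 (without deprived replicate 1) to 559 (without non-deprived replicate 1) reached that level in the same fits. The median log2 change of the matched genes, Unc50 included, ran from -0.02 (without deprived replicate 2) to 0.10 (without non-deprived replicate 3). Without the intensity trend 1 guidance gene had an unadjusted p under 0.05 by limma, and the share of all probe sets is not given for that fit either. The count of members higher in deprived cortex, over all these alternatives except no filter, and the count of members without overlap after quantile normalization were added after seeing the data.

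Of the 31 tested genes, 12 kept their direction whichever array was left out. For all 3 ephrin-B genes, Epha7, Plxnd1 and Ephb6 this outcome was fixed in advance. Their groups did not overlap, so leaving out 1 array could not change the sign. The rest of the 12 were Sema6c, Sema4d, Epha5, Nrp1, Plxnb2 and Unc50. The log2 change crossed zero for the other 19: Efna2 (-0.64 to 0.32), Efna3 (-0.19 to 0.06), Epha4 (-0.11 to 0.06), Epha6 (-0.38 to 0.07), Epha8 (-0.04 to 0.18), Ephb3 (-0.20 to 0.51), Ntn1 (-0.12 to 0.07), Plxna1 (-0.30 to 0.22), Plxna2 (-0.18 to 0.29), Plxna3 (-0.26 to 0.23), Sema3e (-0.59 to 0.64), Sema4a (-0.13 to 0.11), Sema4b (-0.06 to 0.22), Sema4f (-0.17 to 0.10), Sema5b (-0.18 to 0.44), Sema6b (-0.06 to 0.21), Sema6d (-0.23 to 0.33), Sema7a (-0.30 to 0.19), Unc5c (-0.12 to 0.07). Averaging a gene's probe sets turned Epha4 to 0.30, Ntn1 to 0.05, Plxnb2 to -0.14, Sema4a to 0.36, Sema4b to -0.01 and Sema7a to 0.03, and quantile normalization turned Sema3e to -0.02. With 3 arrays per group, MAS5 signals near background limit the dim genes most.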
